A study of Mus musculus with 25 samples.

Results

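Cholesterol synthesis and sterol regulation were described here by 38 genes, chosen by name as enzymes of the sterol pathway, regulators of the SREBP factors, genes of sterol turnover and genes of fatty acid synthesis. All 38 were found among the 36528 gene IDs of the deposited tables. RNA had been sequenced from brain cells of mice aged 6 months, either Tau-P301S (hMAPT-P301S) transgenic mice, which carry human tau with the P301S mutation that causes frontotemporal dementia, or non-transgenic (non-Tg) littermates. Astrocytes had been sorted by Gfap and neurons by NeuN. There were 5 P301S astrocyte libraries, 6 non-Tg astrocyte libraries, 6 P301S neuron libraries and 8 non-Tg neuron libraries, 25 in all. The promoter that drives the transgene is not given in the sources used here, and the gene tables do not show transgene reads apart from mouse Mapt, so no targeted gene could check the labels. Nor is it given whether a library is 1 mouse or a pool, so p-values measure only the spread between these samples, which may be technical. Libraries are numbered within a group in the order of deposition.

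The brain makes its own cholesterol, because the blood-brain barrier holds back lipoproteins, and in the adult brain much of that synthesis is known to take place in glia. The pathway joins acetyl units into mevalonate, then isoprenoids and squalene, and closes squalene into lanosterol, which a series of enzymes trims to cholesterol. When membranes of the endoplasmic reticulum run low in sterol, SCAP carries the SREBP proteins to the Golgi, where they are cut and released to switch on the genes of the pathway. INSIG proteins hold SCAP back when sterol is plentiful. Oxysterols activate the LXR receptors, which act against sterol accumulation.

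In depth, libraries held between 1.25e+06 and 4.45e+06 counts. A floor of 3 counts came to between 0.674 and 2.41 CPM, that is counts per 1e+06, and floors cover counting error only. The labels give a usual yield of 2 to 5 ng of RNA from astrocytes and 200 to 300 ng from neurons. Thinned to 1e+06 counts, P301S astrocyte libraries detected 14021 ± 1617 genes (SD, n = 5) and non-Tg ones 16698 ± 1043 (n = 6). P301S astrocytes 4 and 3 detected the fewest, 11940 and 13339. Summed markers of astrocytes ran from 11928 to 24030 CPM in P301S astrocytes and from 13208 to 21466 CPM in non-Tg astrocytes, and from 373 to 680 CPM in P301S neurons and 290 to 672 CPM in non-Tg neurons. Gfap, the gate of the astrocyte sort, itself differed by genotype, with 820 ± 143 CPM (n = 5) in P301S astrocytes and 175 ± 90.6 CPM (n = 6) in non-Tg astrocytes. Because these are bulk samples, fewer cells of a type and less RNA per cell cannot be told apart.

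The first comparison set astrocytes against neurons within a genotype. The sterol and lipid genes were mostly higher in astrocytes, in both genotypes. Of the 34 members tested, 22 were higher in astrocytes in P301S brains and none lower, where 29% of all 14197 genes tested were higher and 23.2% lower (edgeR's quasi-likelihood test with Benjamini-Hochberg adjustment, adjusted p under 0.05). In non-Tg brains 25 of 34 were higher in astrocytes and none lower, where 25.1% of all genes were higher and 21.8% lower. The members' median log2 difference was 1.47 in P301S brains, against 0.21 over all genes, and 1.78 in non-Tg brains, against 0.11 over all genes. With RLE size factors in place of TMM, 22 members were higher in each genotype. The median over all genes was then 0.08 in P301S brains and -0.08 in non-Tg brains, and 26.6% and 21.6% of all genes were higher. With the number of genes detected as covariate 11 members were higher in P301S brains, where 14.3% of all genes were. With DESeq2 22 members were higher and 2 lower in P301S brains, where 27.7% of all genes were higher and 26.3% lower. Without P301S astrocytes 3 and 4, the P301S counts were 18 higher and 2 lower, the lower being Insig2 and Mylip. In that fit 27.8% of all genes were higher and 24.7% lower. A gene expressed in astrocytes alone can pass the filter on low counts through that cell type only, so the count was repeated over the 26 members that also passed in neurons. Of those, 18 were higher in astrocytes in P301S brains, where 26.7% of all genes passing in both cell types were higher, and 19 in non-Tg brains, where the share was 21.2%. Mvd, Idi1, Fdps and Tm7sf2 were too low to be tested between the cell types.

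**Figure D1:**
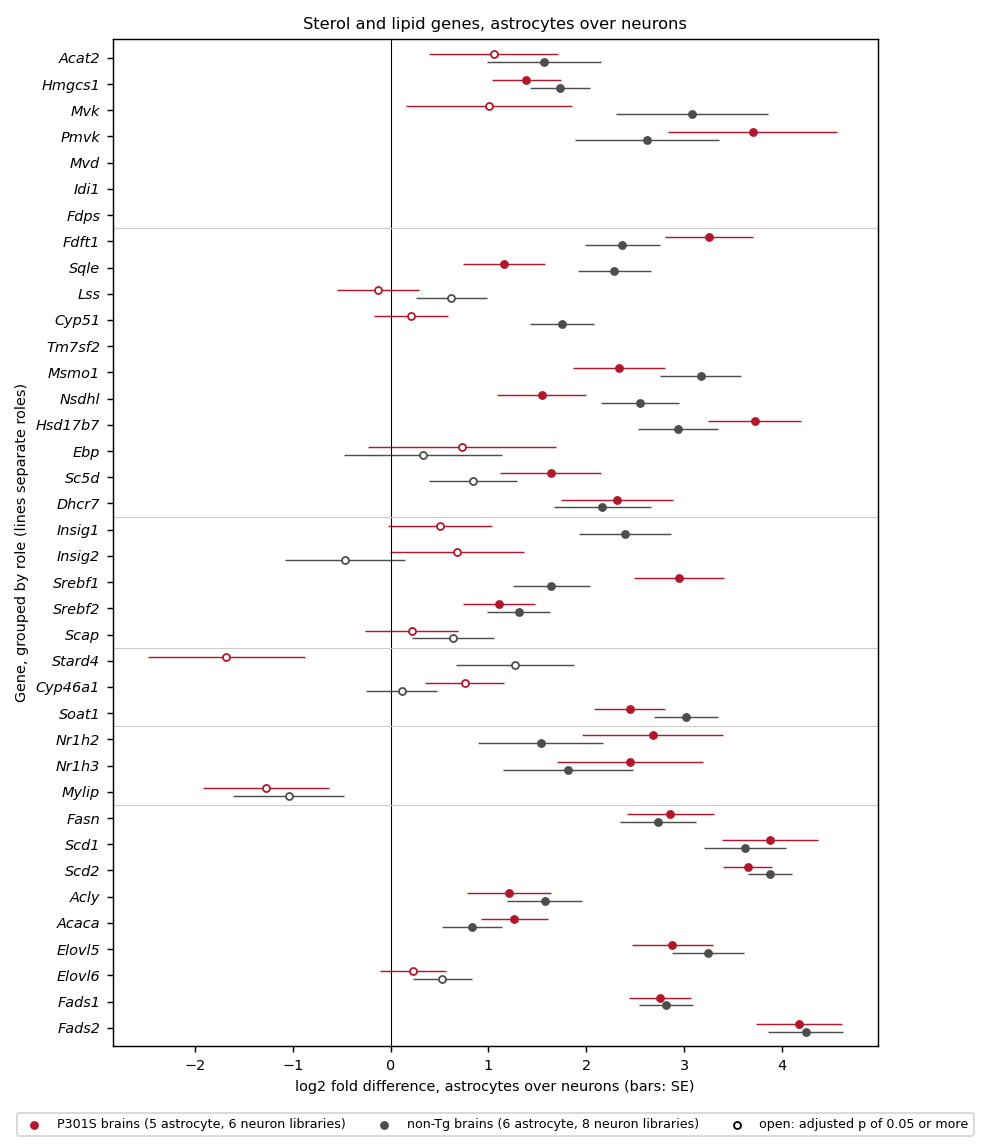
Log2 fold difference, astrocytes over neurons, for the 38 genes grouped by role, with SE as bars, in P301S brains (red) and non-Tg brains (grey). Filled points have an adjusted p under 0.05, and genes without points were not tested. Genes of fatty acid desaturation lie far to the right in both genotypes, while the red points of Cyp51 and Insig1 lie near 0.

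The desaturase genes Fads2 and Scd2 had the highest levels. Levels between genes are given as the authors' size-factor-adjusted RPKM, a value per length of the gene model. In P301S astrocytes Fads2 and Scd2 ranked highest of the 38 genes, at medians of 10.4 and 10.1. They led in non-Tg astrocytes too, where the medians of Fads2, Scd2, Msmo1, Elovl5, Fads1 and Sqle were 12.7, 11.9, 7.36, 6.08, 4.83 and 4.43. In neurons no member passed a median of 2. The highest there was Insig2, at 1.19 in P301S neurons and 1.60 in non-Tg neurons, followed by Cyp51 at 1.07 in P301S neurons and 1.26 in non-Tg neurons.

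Fads2 encodes the delta-6 desaturase that opens the synthesis of polyunsaturated fatty acids. In P301S brains its adjusted RPKM ran from 6.09 over a median of 10.4 to 18.8 in the 5 astrocyte libraries and from 0.449 over 0.622 to 1.09 in the 6 neuron libraries, a log2 difference of 4.17 (SE 0.44). In non-Tg brains it ran from 7.81 over a median of 12.7 to 21.5 in the 6 astrocyte libraries and from 0.0683 over 0.681 to 1.35 in the 8 neuron libraries, a log2 difference of 4.24 (SE 0.38, edgeR adjusted p = 3.62e-11). Astrocyte and neuron libraries overlapped in neither genotype.

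Scd2, a stearoyl-CoA desaturase that makes monounsaturated fatty acids, ran from 10.1 over a median of 11.9 to 14.3 in non-Tg astrocytes and from 0.604 over 0.923 to 1.33 in non-Tg neurons. Again no libraries overlapped, and the log2 difference was 3.88 (SE 0.22, edgeR adjusted p = 1.07e-15). Fads1, the delta-5 desaturase, ran from 3.48 over 4.83 to 8.62 in non-Tg astrocytes and from 0.554 over 0.777 to 1.32 in non-Tg neurons. Its groups did not overlap either, with a log2 difference of 2.82 (SE 0.28, edgeR adjusted p = 2.49e-10). Fads1, Fads2, Scd1 and Scd2 all lie on chromosome 19 (RefSeq, GRCm38.p6), with Fads2 from 10062765 to 10101503 and Fads1 from 10182877 to 10196874. Scd1 and Scd2 are close paralogs, and reads that align to both would not have been counted.

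Fasn, which builds palmitate, was higher in astrocytes by 2.73 (SE 0.39) on the log2 scale in non-Tg brains, and the elongase gene Elovl5 by 3.24 (SE 0.37). Acly, which supplies cytosolic acetyl-CoA, was higher by 1.57 (SE 0.39), and Acaca, whose product carries out the first committed step of fatty acid synthesis, by 0.83 (SE 0.30). The adjusted p of Acaca was 0.0240 and passed 0.05 under other size factors and without any 1 of several libraries, with values up to 0.0842. Elovl6, another elongase gene, was the 1 gene of the 9 in this role that was not called in either genotype, with a log2 difference of 0.23 (SE 0.34) in P301S brains and 0.53 (SE 0.30) in non-Tg brains.

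Among the 18 enzymes of sterol synthesis, 14 were tested between the cell types. Of these, Acat2, Mvk and Pmvk had passed the filter on low counts within astrocytes only, and Ebp within neither cell type. The log2 differences of the other 10 in non-Tg brains all lay above 0, where 53.7% of the 9348 genes passing in both cell types did so. Msmo1, the C4 sterol methyl oxidase, had the largest median adjusted RPKM of these enzymes in non-Tg astrocytes, running from 4.97 over 7.36 to 10.9 there and from 0.734 over 1.08 to 1.25 in non-Tg neurons. Its libraries did not overlap (log2 difference 3.17, SE 0.41). Mvk, the mevalonate kinase, had a difference of 3.08 (SE 0.78), Hsd17b7, a 3-ketosteroid reductase, 2.94 (SE 0.41), Nsdhl, which removes the C4 carboxyl group, 2.55 (SE 0.40), and Fdft1, squalene synthase, 2.37 (SE 0.39). Sqle, squalene epoxidase, was higher by 2.28 (SE 0.37) and Dhcr7, which reduces 7-dehydrocholesterol, by 2.16 (SE 0.50). The enzymes not called were Lss, lanosterol synthase, at 0.62 (SE 0.37), Sc5d, the lathosterol oxidase, at 0.84 (SE 0.45), and Ebp, a sterol isomerase, at 0.33 (SE 0.81).

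Soat1 encodes an acyltransferase that esterifies cholesterol for storage. It ran from 3.79 over 4.16 to 5.33 adjusted RPKM in non-Tg astrocytes and from 0.399 over 0.628 to 0.729 in non-Tg neurons. The groups stood apart, with a log2 difference of 3.02 (SE 0.33, edgeR adjusted p = 2.02e-09). Of the regulators, Insig1 was higher by 2.40 (SE 0.47), Srebf1, which encodes the SREBP that favours fatty acid genes, by 1.64 (SE 0.39), and Srebf2, which encodes the SREBP that favours sterol genes, by 1.31 (SE 0.32). Scap was not called (0.63, SE 0.42), nor was Cyp46a1 (0.11, SE 0.37), the 24-hydroxylase through which neurons turn cholesterol over. The LXR receptor genes Nr1h2 and Nr1h3 were called with adjusted p of 0.0477 and 0.0240. The call of Nr1h2 was lost without any of 10 libraries taken out in turn, at adjusted p up to 0.248, and that of Nr1h3 without non-Tg neuron 5 (adjusted p = 0.0510). Over all alternative fits, the call held in 8 of 21 for Nr1h2 and in 18 of 20 for Nr1h3. For Nr1h3 the adjusted p reached at most 0.0560.

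**Figure D2:**
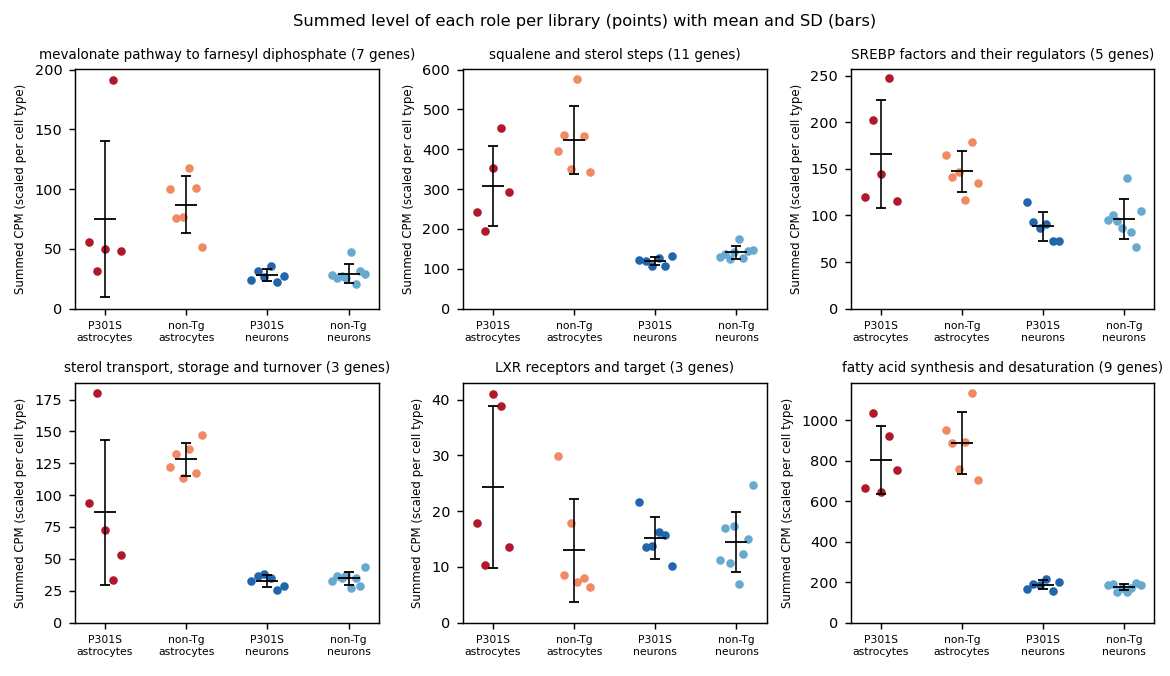
Summed CPM of the genes of each of 6 roles, a point per library, with mean and SD as bars, in P301S astrocytes, non-Tg astrocytes, P301S neurons and non-Tg neurons. CPM are scaled within each cell type. The 9 fatty acid genes sum to between 648 and 1035 CPM in P301S astrocytes and between 703 and 1135 CPM in non-Tg astrocytes, far above the neuron libraries.

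Only Mylip and Insig2 had lower estimates in astrocytes than in neurons in non-Tg brains. Mylip, an LXR target whose product marks lipoprotein receptors for degradation, ran from 0.0518 over 0.234 to 0.585 adjusted RPKM in non-Tg astrocytes and from 0.276 over 0.590 to 0.897 in non-Tg neurons. The groups overlapped, and the log2 difference of -1.04 (SE 0.57) was not called (edgeR adjusted p = 0.136), though it was called by DESeq2 (adjusted p = 0.0416). Insig2 ran from 0.292 over 0.922 to 1.82 in non-Tg astrocytes and from 0.808 over 1.60 to 2.43 in non-Tg neurons. These overlapped too, and the difference of -0.47 (SE 0.62) was not called. With a sex marker covariate it was 0.19. In P301S brains the difference of Insig2 was 0.68 (SE 0.69), and -1.90 (adjusted p = 0.00289) without P301S astrocyte 4. Its partner Insig1 had medians of 3.05 in non-Tg astrocytes and 0.497 in non-Tg neurons and was called higher in astrocytes there. In the reported fit of P301S brains neither gene was called, and both estimates lay above 0.

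Gene by gene, astrocytes lay above neurons without overlap for 10 of 34 members in P301S brains, where 12.7% of all genes did so. In non-Tg brains they did so for 18 of 34, where 15.4% of all genes did. The 10 include Scd1 and the 18 include Scd1 and Mvk, which had passed the filter on low counts within astrocytes only. These counts and shares were not repeated over genes passing in both cell types. Cyp51, Insig1, Mvk and Acat2 were called between the cell types in non-Tg brains and not in P301S brains. The call of Acat2 (1.57, SE 0.58, edgeR adjusted p = 0.0259) was lost with RLE size factors, with no filter and without non-Tg astrocyte 1, non-Tg astrocyte 2 or non-Tg neuron 3, at adjusted p up to 0.125. Cyp51, the lanosterol 14-alpha-demethylase, differed by 0.21 (SE 0.38) in P301S brains and by 1.75 (SE 0.33) in non-Tg brains. For Insig1 the differences were 0.50 (SE 0.53) in P301S brains and 2.40 (SE 0.47) in non-Tg brains. Whether such pairs of values differ is the same test as whether genotype acted differently in the 2 cell types, given further on, and none of the 34 members passed it. Sc5d was called in P301S brains (1.63, SE 0.51) but not without P301S astrocyte 2 (0.40, adjusted p = 0.452), and Pmvk, the phosphomevalonate kinase gene (3.70, SE 0.86), was not called without P301S astrocyte 4 (1.37, adjusted p = 0.0990).

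The second comparison set P301S against non-Tg astrocytes. Several enzymes of the sterol steps and Insig1 had lower levels in P301S astrocytes, but no member was called. Of the 34 members tested, 0 had an adjusted p under 0.05 in edgeR's quasi-likelihood test, where 0.544% of 12130 genes were called, 63 higher (0.519%) and 3 lower (0.0247%). At an unadjusted p under 0.05, 6 members were lower and 1 higher, where 4.09% of all genes were lower and 9.34% higher. The median log2 change was -0.21 for the members, with 21 of 34 below 0, and 0.13 for all genes, with 43.3% below 0. DESeq2 called 2 members lower (Cyp51 and Insig1), where 0.734% of all genes were lower. With limma voom and sample quality weights 1 was called lower (Cyp51), where 0.0907% of all genes were. The fit without a filter on low counts called 3 (Cyp51, Msmo1 and Insig1), where 0.364% of all genes were lower. A fit of all 25 libraries, which gives both cell types 1 spread, called 6 (Sqle, Cyp51, Msmo1, Nsdhl, Insig1 and Stard4), where 5.08% of all genes were lower. In simulated astrocyte data of this size, 5% of 100 genes changed by 1 on the log2 scale were recovered and 64% of 100 genes changed by 2. The simulation gave both genotypes the same spread per gene, whereas P301S astrocytes varied more, as given further on. Recovery in the real data may differ for that reason. The changed genes were drawn only from above a set mean CPM, which Stard4 and Nr1h2, for example, did not reach.

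**Figure D3:**
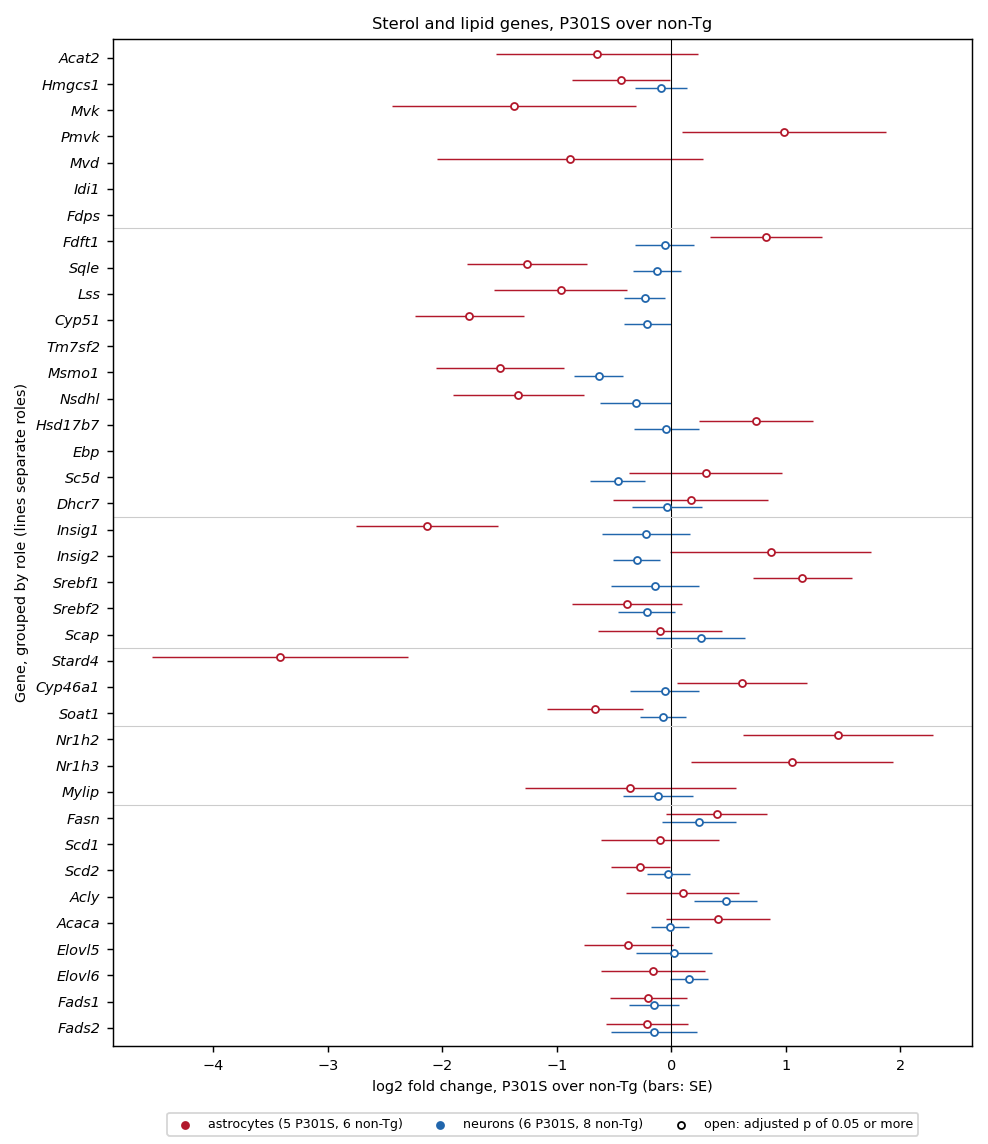
Log2 fold change, P301S over non-Tg, for the 38 genes grouped by role, with SE as bars, in astrocytes (red) and neurons (blue). Every point is open, since no member had an adjusted p under 0.05, and the astrocyte estimates of Stard4, Insig1 and Cyp51 lie farthest below 0.

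The genes whose results this comparison turns on include Cyp51, Insig1 and Msmo1. Their promoters are shown with that of Hmgcs1, the 1 member whose promoter held the sterol regulatory element searched for. Each is the RefSeq window of GRCm38.p6 from 250 bases before to 50 after the start of transcription, 5′ to 3′ on the strand of the gene. Capitals mark the sterol regulatory element TCACNCCAC and the box CCAAT, which NF-Y binds, on either strand (ATTGG on the other). The windows are chr5:4104648-4104947 on the minus strand for Cyp51, chr5:28071162-28071461 on the plus strand for Insig1, chr8:64733529-64733828 on the minus strand for Msmo1 and chr13:119690101-119690400 on the plus strand for Hmgcs1.
Cyp51: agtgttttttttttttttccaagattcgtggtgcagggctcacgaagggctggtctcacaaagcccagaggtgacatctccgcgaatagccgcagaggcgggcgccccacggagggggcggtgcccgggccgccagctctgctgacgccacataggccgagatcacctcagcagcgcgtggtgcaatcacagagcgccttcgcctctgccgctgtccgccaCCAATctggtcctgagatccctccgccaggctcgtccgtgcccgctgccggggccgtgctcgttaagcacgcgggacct
Insig1: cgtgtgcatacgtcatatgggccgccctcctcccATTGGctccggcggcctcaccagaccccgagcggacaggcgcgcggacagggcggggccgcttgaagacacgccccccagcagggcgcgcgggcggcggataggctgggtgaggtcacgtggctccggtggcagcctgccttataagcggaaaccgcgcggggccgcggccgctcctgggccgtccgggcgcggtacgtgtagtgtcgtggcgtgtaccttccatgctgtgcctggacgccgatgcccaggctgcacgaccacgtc
Msmo1: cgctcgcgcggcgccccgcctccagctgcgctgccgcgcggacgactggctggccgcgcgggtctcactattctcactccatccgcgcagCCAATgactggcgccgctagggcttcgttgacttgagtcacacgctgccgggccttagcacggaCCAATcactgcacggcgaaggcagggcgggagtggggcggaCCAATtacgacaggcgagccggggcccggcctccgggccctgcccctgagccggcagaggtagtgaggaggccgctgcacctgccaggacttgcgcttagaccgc
Hmgcs1: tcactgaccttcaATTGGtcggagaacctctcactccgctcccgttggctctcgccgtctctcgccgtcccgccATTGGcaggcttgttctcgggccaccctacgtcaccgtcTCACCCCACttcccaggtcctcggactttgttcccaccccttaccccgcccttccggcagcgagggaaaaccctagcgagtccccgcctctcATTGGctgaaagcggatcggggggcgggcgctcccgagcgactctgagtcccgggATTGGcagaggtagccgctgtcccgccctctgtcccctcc

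The element TCACNCCAC was found in the promoter of 1 of the 31 members with a promoter in the table, Hmgcs1, as TCACCCCAC, its first base 137 bases before the start. It was found in 1.44% of the 27025 genes with a promoter. A CCAAT box on either strand stood in 24 of 31 members and in 14 of 15 enzymes of sterol synthesis, against 41.1% of all genes with a promoter and 43.1% of 8161 protein-coding genes tested in astrocytes. GGGCGG, the box of Sp1, also stood in 24 of 31 members, against 69.7% of those coding genes. The palindrome CACGTG stood in 6 of 31 members, against 11.9% of those coding genes. These are matches of letters in a short window, not sites shown to be bound, and they overlap in places.

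Cyp51 (chromosome 5, 4080674 to 4104697) removes the 14-alpha methyl group of lanosterol, the first trimming step after ring closure. It had 15.6, 16.0, 66.2, 21.7 and 12.3 CPM in P301S astrocytes 1 to 5. The 6 non-Tg astrocyte libraries ran from 43.2 over a median of 83.5 to 165 CPM. Of the P301S libraries, 4 lay below every non-Tg library and number 3 lay within their range. The log2 change was -1.76 (SE 0.47, edgeR adjusted p = 0.0964), with 5 of 5 P301S libraries below the non-Tg mean. Without P301S astrocyte 3 it was -2.46 (adjusted p = 0.00883), and without numbers 3 and 4 -2.61 (adjusted p = 0.00879). Leaving out any other 1 library gave adjusted p between 0.0985 and 0.223. By adjusted RPKM, Cyp51 ranked 22 among the 38 genes in P301S astrocytes, against 8 in non-Tg astrocytes.

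Insig1 (chromosome 5, 28071412 to 28078662), which retains SCAP in the endoplasmic reticulum and is itself an SREBP target, had 14.2, 1.63, 25.1, 1.98 and 6.31 CPM in P301S astrocytes. The non-Tg astrocytes ran from 26.9 over a median of 43.7 to 57.2 CPM. The highest P301S library, number 3, lay just below the lowest non-Tg library, number 4. Insig1 was the 1 member of 34 whose groups did not overlap, where 0.923% of all genes were lower without overlap and 1.22% higher. The log2 change was -2.13 (SE 0.62, edgeR adjusted p = 0.124), and -2.81 (adjusted p = 0.0419) without P301S astrocyte 3. Its rank by adjusted RPKM was 27 in P301S astrocytes, against 9 in non-Tg astrocytes.

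Stard4, a carrier that moves cholesterol between membranes, had 0.976, 0, 0, 0 and 1.89 CPM in P301S astrocytes, which is at or near the floor. The non-Tg astrocytes ran from 1.72 over a median of 3.43 to 18.5 CPM, so that P301S astrocyte 5 overlapped the lowest of them. The fitted log2 change was -3.42 (SE 1.12, edgeR adjusted p = 0.173) and rests on few counts. It lies on chromosome 18, from 33199138 to 33213862.

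Msmo1 (chromosome 8, 64718123 to 64733578) had 14.2, 28.2, 2.23, 17.8 and 74.5 CPM in P301S astrocytes and ran from 48.7 over a median of 73.5 to 109 CPM in non-Tg astrocytes. Here 4 P301S libraries lay below all non-Tg ones and number 5 within their range. The log2 change was -1.50 (SE 0.56, edgeR adjusted p = 0.236).

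Sqle, whose enzyme makes the epoxide that is closed into lanosterol, had 38.1, 6.79, 4.14, 29.0 and 50.8 CPM in P301S astrocytes and ran from 42.6 over a median of 65.4 to 74.8 CPM in non-Tg astrocytes. Number 5 alone reached the non-Tg range. The log2 change was -1.26 (SE 0.53, edgeR adjusted p = 0.297). Nsdhl, on chromosome X, had 13.2, 16.6, 6.68, 16.5 and 2.52 CPM in P301S astrocytes and ran from 16.0 over a median of 27.4 to 38.5 CPM in non-Tg astrocytes. Its groups overlapped at their edges, in P301S libraries 2 and 4 and non-Tg library 6, and its log2 change was -1.34 (SE 0.57, edgeR adjusted p = 0.308).

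Srebf1 went the other way. It had 43.4, 161, 90.7, 25.0 and 61.2 CPM in P301S astrocytes and ran from 20.9 over a median of 35.5 to 46.7 CPM in non-Tg astrocytes. P301S libraries 2, 3 and 5 exceeded every non-Tg library, and the log2 change was 1.14 (SE 0.43, edgeR adjusted p = 0.240). Nr1h2, which encodes LXR-beta, had 2.93, 6.79, 30.2, 6.59 and 7.89 CPM in P301S astrocytes and ran from 0.573 over a median of 3.47 to 9.87 CPM in non-Tg astrocytes. Only number 3 stood above the non-Tg range, and the log2 change was 1.45 (SE 0.83, edgeR adjusted p = 0.452).

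**Figure D4:**
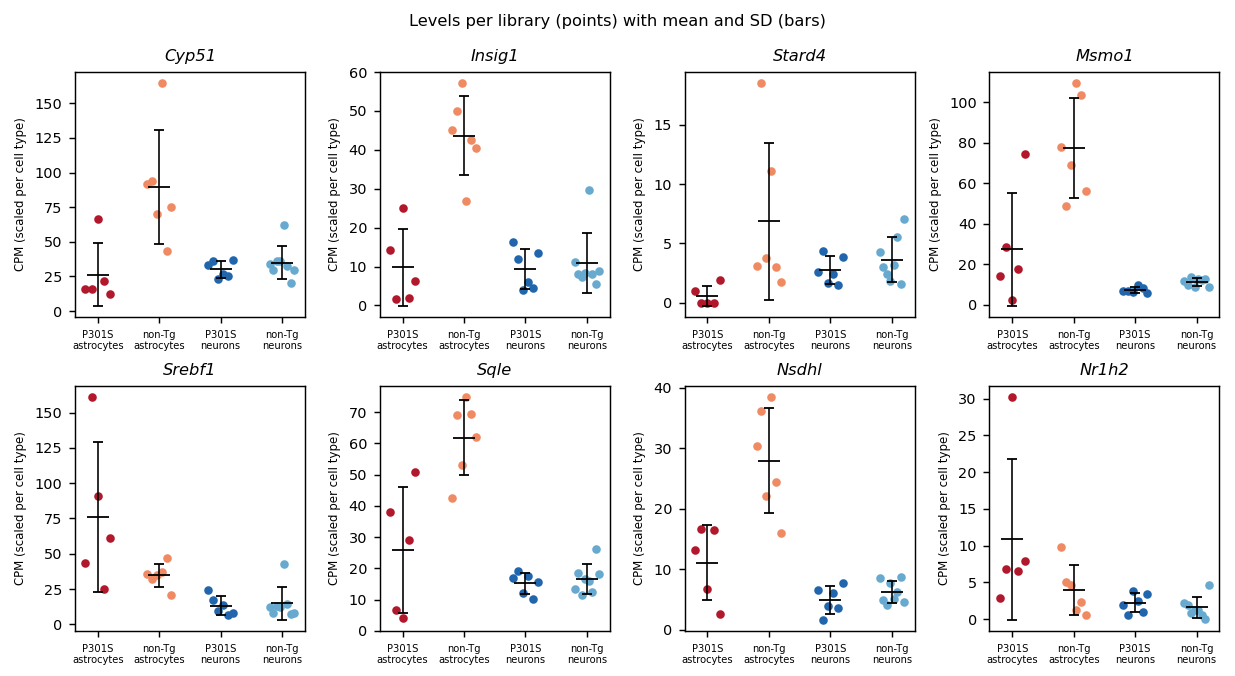
CPM, scaled within each cell type, of the 8 genes with the smallest p between P301S and non-Tg astrocytes, a point per library, with mean and SD as bars, in the 4 groups. For Cyp51, P301S astrocyte 3 at 66.2 CPM stands among the non-Tg libraries, while the other P301S libraries lie at or below 21.7 CPM.

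Not all of the pathway had lower estimates. Among the 14 enzymes tested in astrocytes, 9 changes were below 0, with a median of -0.77. Above 0 were Pmvk (0.98, SE 0.89), Fdft1 (0.83, SE 0.49), Hsd17b7 (0.74, SE 0.50), Sc5d (0.30, SE 0.67) and Dhcr7 (0.17, SE 0.68). None was called, and each of these 5, with Acat2 and Mvd of those below 0, changed sign under at least 1 of 20 alternatives. Hmgcs1, the HMG-CoA synthase gene whose promoter holds the element above, had 27.1, 28.2, 26.4, 86.3 and 21.1 CPM in P301S astrocytes and ran from 37.2 over a median of 51.2 to 70.5 CPM in non-Tg astrocytes. There 4 P301S libraries lay below every non-Tg library and number 4 above every one, and the log2 change was -0.44 (SE 0.43). The 18 enzymes summed to 298, 227, 403, 644 and 342 CPM in P301S astrocytes and from 395 over a median of 504 to 695 CPM in non-Tg astrocytes, so that the groups overlapped.

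Fatty acid genes had small estimates. All 9 were tested, their log2 changes ran from -0.37 for Elovl5 to 0.41 for Acaca, with a median of -0.16, and none had an unadjusted p under 0.05. Each of the 9 changed sign under at least 1 of 20 alternatives, so changes in these genes are not excluded. Scd2 averaged 297 ± 112 CPM in P301S astrocytes (n = 5) and 357 ± 46.5 CPM in non-Tg astrocytes (n = 6; log2 change -0.27, SE 0.26). Of the other regulators and turnover genes, Srebf2 had a change of -0.39 (SE 0.48), Scap of -0.10 (SE 0.54), Soat1 of -0.66 (SE 0.42) and Cyp46a1 of 0.61 (SE 0.57). Insig2 had 178 CPM in P301S astrocyte 4 and between 0.631 and 16.4 CPM in the other 4, against 6.41 to 38.2 CPM in non-Tg astrocytes.

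Spread between libraries was wide in P301S astrocytes. Over members with a median of at least 20 counts, the median coefficient of variation was 0.734 in P301S astrocytes (26 members) and 0.320 in non-Tg astrocytes (28 members). Over all genes past the same count it was 0.663 in P301S and 0.382 in non-Tg astrocytes. Among neurons the members' median was 0.228 in P301S and 0.285 in non-Tg libraries. Fdft1 shows the width, at 43.4, 16.6, 178, 59.3 and 40.4 CPM in P301S astrocytes and 23.4 to 59.3 CPM in non-Tg astrocytes. Idi1, the isopentenyl diphosphate isomerase gene, was at 0 in all 5 P301S astrocyte libraries and at most 2.76 CPM in non-Tg astrocytes. Fdps, Tm7sf2 and Ebp were also too low to be tested between P301S and non-Tg astrocytes. Only uniquely aligned reads were counted, so genes with near-identical copies elsewhere would read low, which was not tested for these genes.

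Summed markers of other cells and signs of RNA quality are given for the same libraries. Of the markers of oligodendrocytes, microglia and neurons, 7, 6 and 9 were tested in astrocytes and 0 were called in edgeR, with 3, 1 and 1 higher at an unadjusted p under 0.05. The 9 oligodendrocyte markers summed to between 336 and 1110 CPM in P301S astrocytes and between 174 and 463 CPM in non-Tg astrocytes, and the 9 microglia markers to between 94.4 and 203 CPM in P301S and between 50.7 and 111 CPM in non-Tg astrocytes. None of these markers had a median of 0 in either astrocyte group. The 10 neuron markers summed to between 197 and 586 CPM in P301S and between 162 and 351 CPM in non-Tg astrocytes. Markers of oligodendrocyte precursors summed to between 256 and 604 CPM in P301S and between 203 and 370 CPM in non-Tg astrocytes. Of 5 tested, 0 were called, with 1 higher and 0 lower at an unadjusted p under 0.05. Of the 10 astrocyte markers, 1 was called higher, Gfap. At an unadjusted p under 0.05, 4 were higher and 2 lower, where 9.34% of all genes were higher and 4.09% lower. The 7 endothelial markers summed to at most 23.0 CPM in P301S and 29.5 CPM in non-Tg astrocytes and were too low to be tested, with Cldn5, Cdh5 and Ly6c1 at a median of 0 in both. Mitochondrial genes took 7.72 ± 2.86% of counts in P301S astrocytes (SD, n = 5) and 4.04 ± 1.52% in non-Tg astrocytes (n = 6), with the highest share, 11.4%, in P301S astrocyte 4. The part of that share in the lower estimates was not tested. With oligodendrocyte and microglia levels as covariates, the log2 change was -3.38 (adjusted p = 0.0850) for Cyp51, -3.90 (adjusted p = 0.386) for Insig1 and -0.55 (adjusted p = 0.942) for Msmo1. With the number of genes detected as covariate, Cyp51 had -2.38 and no gene of the whole table was called (adjusted p = 0.995).

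Further genes of the pathway, 56 in 5 lists, included 49 that were tested in astrocytes, and none was called. Their median log2 change was 0.16. At an unadjusted p under 0.05, 6 of the 49 were higher and 1 lower, where 9.34% of all genes were higher and 4.09% lower. The smallest p was that of Acacb, the mitochondrial acetyl-CoA carboxylase gene, with 76.2 ± 40.6 CPM in P301S astrocytes and 28.3 ± 9.66 CPM in non-Tg astrocytes (log2 change 1.43, SE 0.42, edgeR adjusted p = 0.133). Gpam, which starts glycerolipid synthesis, had 401 ± 138 CPM in P301S and 242 ± 40.3 CPM in non-Tg astrocytes (0.73, SE 0.25). The 1 lower gene was Acss2, whose product makes acetyl-CoA from acetate and which is an SREBP target, with 15.5 ± 11.3 CPM in P301S and 41.8 ± 13.7 CPM in non-Tg astrocytes (-1.42, SE 0.56, edgeR adjusted p = 0.269). Among genes of sterol carriers, Osbpl1a and Osbpl2, which encode oxysterol-binding protein relatives, had changes of 1.15 (SE 0.40) and 1.31 (SE 0.52), and Gramd1b, which moves cholesterol from the plasma membrane to the endoplasmic reticulum, one of 0.51 (SE 0.23). Of the 9 genes of SREBP processing, 8 were tested and 0 had an unadjusted p under 0.05.

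The third comparison set P301S against non-Tg neurons. No member was called, and the estimates were small. Of 26 members tested, 0 passed in edgeR's quasi-likelihood test, in DESeq2 or in voom, where edgeR called 0.00913% of 10951 genes. No member was without overlap between the groups, where 0.119% of all genes were higher and 0.1% lower without overlap. At an unadjusted p under 0.05, 1 member was lower and 0 higher, where 4.68% of all genes were lower and 3.04% higher. In neurons the median log2 change was -0.10 for the members and -0.02 for all genes. All 10 sterol enzymes tested had a change below 0, between -0.63 and -0.04, where 53.8% of all genes were below 0. Hmgcs1, Fdft1, Sqle, Hsd17b7 and Dhcr7 changed sign under at least 1 of the 23 alternatives tried, and the estimates share libraries. In simulated neuron data of this size, 84% of 100 genes changed by 1 on the log2 scale were recovered. Those genes were drawn only from above a set mean CPM, which many members, such as Msmo1 and Nsdhl, did not reach in neurons. How well changes in such members would be recovered was not tested.

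Msmo1 had the smallest p of the members in neurons. It ran from 5.82 over a median of 6.53 to 9.76 CPM in P301S neurons and from 8.82 over 12.1 to 13.9 CPM in non-Tg neurons. The groups overlapped, with 6 of 6 P301S libraries below the non-Tg mean, and the log2 change was -0.63 (SE 0.21, edgeR adjusted p = 0.472). Sc5d ran from 6.00 over 9.44 to 13.1 CPM in P301S neurons and from 9.26 over 13.4 to 18.2 CPM in non-Tg neurons. These overlapped as well (log2 change -0.47, SE 0.24, edgeR adjusted p = 0.673).

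Acly ran from 16.2 over 25.2 to 48.0 CPM in P301S neurons and from 11.4 over 18.8 to 37.99 CPM in non-Tg neurons, with wide overlap (log2 change 0.47, SE 0.27, edgeR adjusted p = 0.719). Insig2, the leading member in neurons, ran from 25.2 over 29.7 to 43.1 CPM in P301S neurons and from 21.2 over 39.4 to 58.8 CPM in non-Tg neurons (-0.30, SE 0.20, edgeR adjusted p = 0.773). Cyp51 and Insig1 had changes of -0.21 (SE 0.21) and -0.22 (SE 0.39) in neurons. Without non-Tg neurons 5 and 8, whose sample identifiers lie in a range of their own, Insig1 changed sign to 0.17 and was not called.

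Whether the genotype effect differed between astrocytes and neurons was tested in 1 fit of all 25 libraries. That fit gave all 4 groups 1 spread per gene, although P301S astrocytes varied most, so its SE and p-values may be too small. Of 34 members 0 passed with edgeR, DESeq2 or voom, where with edgeR 0.394% of 14197 genes did so. The smallest p was that of Cyp51, whose effect was lower in astrocytes by 1.54 (log2 difference of effects -1.54, SE 0.50, edgeR adjusted p = 0.125). It was called without P301S astrocyte 3 (-2.25, adjusted p = 0.0110) and without numbers 3 and 4 (-2.37, adjusted p = 0.00778). Stard4 came next (-2.95, SE 1.01, edgeR adjusted p = 0.145), on few counts. Insig1 had -1.90 (SE 0.71, edgeR adjusted p = 0.187) and Srebf1 1.30 (SE 0.60, edgeR adjusted p = 0.292). At an unadjusted p under 0.05, 3 members were lower and 1 higher, where 7% of all genes were lower and 7.83% higher.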

How the data were processed

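The authors deposited, per sample, counts of uniquely aligned reads per gene, per the file headers, and size-factor-adjusted RPKM, which differs from the counts by a factor of each sample and one of each gene (largest relative deviation 3.53e-14). GSNAP and GRCm38 are named in the submitters' processing notes; no version is given there. RPKM served for levels between genes, counts for all tests. 5479 IDs matched no symbol (3.30% of counts) and stayed in the tests. No 2 libraries of a group agreed within sampling noise, but some non-Tg neuron libraries were close. By chi-square per degree of freedom, numbers 4 and 7 differed by 1.84, and pairs of 1, 3 and 6 by 2.20 to 2.48. Numbers 4 and 5 differed by 15.15. Whether the close libraries share an origin was not tested. The members and lists were chosen with earlier results of these data known.

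Groups were compared with edgeR 4.0.16 (R 4.3.3): TMM, filterByExpr, robust quasi-likelihood F tests and Benjamini-Hochberg adjustment over all genes tested, called under 0.05. Genotype was fitted within a cell type, other comparisons over all 25 libraries. The SE is the log2 change over the square root of F. CPM are TMM-scaled within a cell type. Genes with values by library were set by rule (smallest p in each comparison, in each direction between cell types); Hmgcs1, Fdft1 and Insig2 in astrocytes were added after their values were seen. DESeq2 1.42.0, limma 3.58.1 voom, other size factors, no filter, covariates and left-out libraries were alternatives. The fits were tested on simulated data with the same spread per gene in every group. Some genes of the pathway are not reported here.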

Additional observations from a re-analysis of the deposited data

Results flagged for a closer look

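Among 126 sets, each the 5 to 8 libraries of a group for 1 member, 19 held a library that stood apart by Dixon's test at 95%. For independent sets of normal values about 1 in 20, or 6.3, would do so. The CPM tested were not on a log scale and cannot fall below 0, and the sets share libraries. The count of 19 can therefore not be set against 6.3. All 19 were single high libraries. P301S astrocyte 4 stood out for Hmgcs1 (86.3 CPM, next 28.2), Pmvk (103 CPM, next 9.03), Insig2 (178 CPM, next 16.4) and Nr1h3 (31.0 CPM, next 9.52). P301S astrocyte 3 did so for Fdft1 (178 CPM, next 59.3), Cyp51 (66.2 CPM, next 21.7), Nr1h2 (30.2 CPM, next 7.89) and Acly (127 CPM, next 42.9). These were also the libraries with the fewest genes detected. P301S astrocyte 5 was high for Acat2 (16.7 CPM) and P301S astrocyte 2 for Sc5d (71.4 CPM). Non-Tg astrocyte 4 was high for Mvk (24.4 CPM) and Tm7sf2 (8.12 CPM), and non-Tg astrocyte 1 for Nr1h3 (15.5 CPM).

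Non-Tg neuron 5 stood above its group for 4 genes at once: Hmgcs1 (36.8 CPM, group median 18.8), Cyp51 (62.2 CPM, median 33.5), Insig1 (29.8 CPM, median 8.26) and Srebf1 (42.5 CPM, median 12.4). Its 18 enzymes summed to 222 CPM, the highest of the 8 libraries, whose median was 165 CPM. It is 1 of the 2 non-Tg neuron libraries with sample identifiers in another range. The other, number 8, was high for Fasn (28.5 CPM), and non-Tg neuron 1 for Acly (37.99 CPM).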

How the results depend on the processing

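No paired analysis was possible because the labels give no replicate numbers that groups share.

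Counts of calls in astrocytes by genotype rested on the tool and the libraries. Lower members numbered 2 with DESeq2, 1 with voom, 3 with no filter, 6 with all 25 libraries in 1 fit, 1 without P301S astrocytes 3 and 4 (chosen after seeing the data as those with the fewest genes detected), and 0 to 2 with 1 library left out, against 0 in the reported fit; no alternative called a member higher. All genes called numbered 440 with DESeq2, 119 with voom, 561 with no filter, 15 with the sex marker covariate, 0 with genes detected as covariate, 2 with oligodendrocyte and microglia covariates, 1682 in the fit of all libraries, 42 without P301S astrocytes 3 and 4, and 27 to 136 with 1 library left out, against 66. The members' median was -0.61 with voom. Nr1h2 was -0.57 with the oligodendrocyte and microglia covariates.

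In neurons no alternative called a member. Genes called numbered 49 with DESeq2, 41 with voom, 17 with no filter, 10 with genes detected as covariate, 0 with the oligodendrocyte and microglia covariates, 38 without non-Tg neurons 5 and 8, and 0 to 23 with 1 library left out, against 1. Srebf1 was 0.0691 with genes detected as covariate, 0.23 without non-Tg neurons 5 and 8, and -0.39 to 0.30 with 1 library left out, the highest without non-Tg neuron 5. Insig1 was 0.17 without non-Tg neurons 5 and 8, and -0.44 to 0.15 with 1 library left out. Sqle was 0.0189 with the oligodendrocyte and microglia covariates.

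For the difference of effects, 1 member was lower without P301S astrocytes 3 and 4, and 0 to 1 with 1 library left out; genes called numbered 425 with DESeq2, 10 with voom, 12 without non-Tg neurons 5 and 8, 266 without P301S astrocytes 3 and 4 and 9 to 522 with 1 library left out, against 56; the members' median was -0.54 with voom.

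Between cell types in non-Tg brains, 1 member (Mylip) was lower with DESeq2, voom and only the 2 groups; the median was 2.22 with only the 2 groups, 2.13 without non-Tg neurons 5 and 8, and 1.68 to 2.19 with 1 library left out. Insig2 was 0.19 with the sex marker covariate.

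In P301S brains, lower members numbered 2 with DESeq2, 1 with the sex marker covariate, 2 without P301S astrocytes 3 and 4, and 0 to 1 with 1 library left out. Higher members numbered 11 with genes detected as covariate; genes called then numbered 3413, and 4925 with only the 2 groups. The median was 1.01 with voom and 1.80 with genes detected. Cyp51 was -0.27 with voom, -0.27 with the sex marker covariate, -0.76 with genes detected, -0.71 without P301S astrocytes 3 and 4 and -0.50 to 0.38 with 1 library left out, the lowest without P301S astrocyte 3. Insig1 was -0.19 to 0.77 with 1 library left out, the lowest again without number 3. Insig2 was -1.62, -0.82, -2.68 and -1.86 in those first 4 settings, and -1.90 to 0.99 with 1 library left out, the lowest without P301S astrocyte 4. Dhcr7 was -0.27 and Mylip 0.0353 with genes detected. The causes were not tested.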
